A study of Mus musculus with 8 samples.

Results

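Jag1, Hes1 and Tle1 belong to the Notch pathway, and each was examined as a window around its H3K4me3 peaks on mouse build mm9. H3K4me3 is histone H3 trimethylated at lysine 4, a modification that sits around the start sites of active genes. The windows were chromosome 2 from 136935000 to 136948000 for Jag1, chromosome 16 from 30060000 to 30072000 for Hes1 and chromosome 4 from 71854000 to 71867000 for Tle1. Every peak that overlapped a window was taken, which gave 8 of 18048 peaks in dKO replicate 1, 7 of 17367 in dKO replicate 2, 8 of 19486 in WT replicate 1 and 8 of 19331 in WT replicate 2. The windows were chosen by the peak widths, pieces, limits and score ranks of these 4 libraries, compared between the genotypes, so differences between genotypes at these loci are a description and carry no test. The assignment of each window to its gene came with the window and was not checked against an mm9 annotation.

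The tissue was whole brain of mouse embryos at stage E12.5, when progenitors divide and give rise to neurons, on a mixed strain background. The dKO group had 2 libraries labelled Lats1/2;Nestin-Cre dKO, in which a Cre driven by Nestin sequences, active in neural progenitors, deletes both Lats kinases of the Hippo pathway. The WT group had 2 libraries labelled wild type, and the design text describes these controls as having no Cre, so Cre itself and the loss of Lats1 and Lats2 cannot be told apart. No label names the animal behind a library, and each pair of libraries measures the spread between libraries only. The loss of Lats1 and Lats2, and the tissue label, were not checked here, since the peak lists hold no expression values and carry no gene names. Since whole brains were used, a mark present in fewer cells and a mark that covers less DNA per cell cannot be told apart.

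In Notch signalling, a membrane-bound ligand on a cell binds a Notch receptor on its neighbour, and the receptor is cut so that its intracellular part enters the nucleus and activates target genes with the DNA-binding protein RBPJ. Jag1 (Jagged1) is a ligand. Hes1 is a direct target, a basic helix-loop-helix repressor that holds neural progenitors undifferentiated and represses its own gene and proneural genes. Tle1 is a Groucho-family corepressor that Hes proteins recruit to the genes they repress.

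The promoter sequences of Jag1 and Tle1 are shown because the H3K4me3 signal at genes of this kind lies over DNA rich in CpG. The RefSeq promoter set used had no Hes1 entry, so the CG counts and the motif search leave Hes1 out. They are the 250 bases before the RefSeq gene start on build GRCm38.p6, minus strand, at chr2:137116521-137116770 for Jag1 and chr4:72200894-72201143 for Tle1. That build differs from the build of the peaks, so these positions cannot be set against the peak positions. The capitals mark CG dinucleotides.
Jag1: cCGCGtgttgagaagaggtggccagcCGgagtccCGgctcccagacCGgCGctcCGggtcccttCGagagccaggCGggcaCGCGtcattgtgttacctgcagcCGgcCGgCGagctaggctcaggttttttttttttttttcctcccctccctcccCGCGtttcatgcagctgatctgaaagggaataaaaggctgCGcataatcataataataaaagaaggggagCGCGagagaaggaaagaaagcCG
Tle1: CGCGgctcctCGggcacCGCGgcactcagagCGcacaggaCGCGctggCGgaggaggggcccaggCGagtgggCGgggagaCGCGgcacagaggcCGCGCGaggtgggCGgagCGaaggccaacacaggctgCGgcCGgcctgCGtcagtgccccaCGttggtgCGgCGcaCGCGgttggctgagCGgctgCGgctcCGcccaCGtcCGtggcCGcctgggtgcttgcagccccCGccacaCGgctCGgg

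The Tle1 promoter held 35 CG dinucleotides and was 77.2% G and C, and the Jag1 promoter held 20 and was 57.2% G and C. The median over the 32851 promoters of the table was 6 CG dinucleotides and 52.4%. Jag1 thus stood at percentile 82.1 and Tle1 at percentile 97.0 for the CG count. In the Jag1 promoter most CG dinucleotides lay further from the start than a long run of T near the middle. Between that run and the start they were fewer, with some close to the start. In Tle1 they ran through the whole stretch.

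5 motifs were searched for on both strands of these 250 bases. An E box (CANNTG, the class of site that basic helix-loop-helix proteins bind) was present once in Jag1, as CAGCTG beginning 82 bases before the start. E boxes were present in 66.2% of all promoters. The RBPJ core TGGGAA was in neither promoter and in 21.6% of all promoters. The N box CACNAG, a site type of Hes repressors, was in neither and in 36.7% of all. The TEAD site GGAATG, read by the DNA-binding partners of YAP and TAZ, was in neither and in 12.6% of all, and TATAAA was in neither and in 12.4% of all. A letter match is not evidence of binding, and the absence of a match covers this stretch of Jag1 and Tle1 alone. The Hes1 promoter was not searched.

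At Jag1, the ligand gene, H3K4me3 formed a single broad domain that was narrower in both dKO libraries. The summed peak width was 3769 and 3623 bp in dKO replicates 1 and 2, against 4263 and 4298 bp in WT replicates 1 and 2. The groups did not overlap, and the WT pair lay closer together than the dKO pair. The same order, with both dKO widths below both WT widths, held in 39.1% of the 14943 shared regions, which are the joined peaks marked in every library. The means were 3696 ± 103 bp in dKO and 4280.5 ± 24.7 bp in WT (SD, n = 2 each), a difference of -584.5 bp, or 13.7% lower in dKO.

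**Figure D1:**
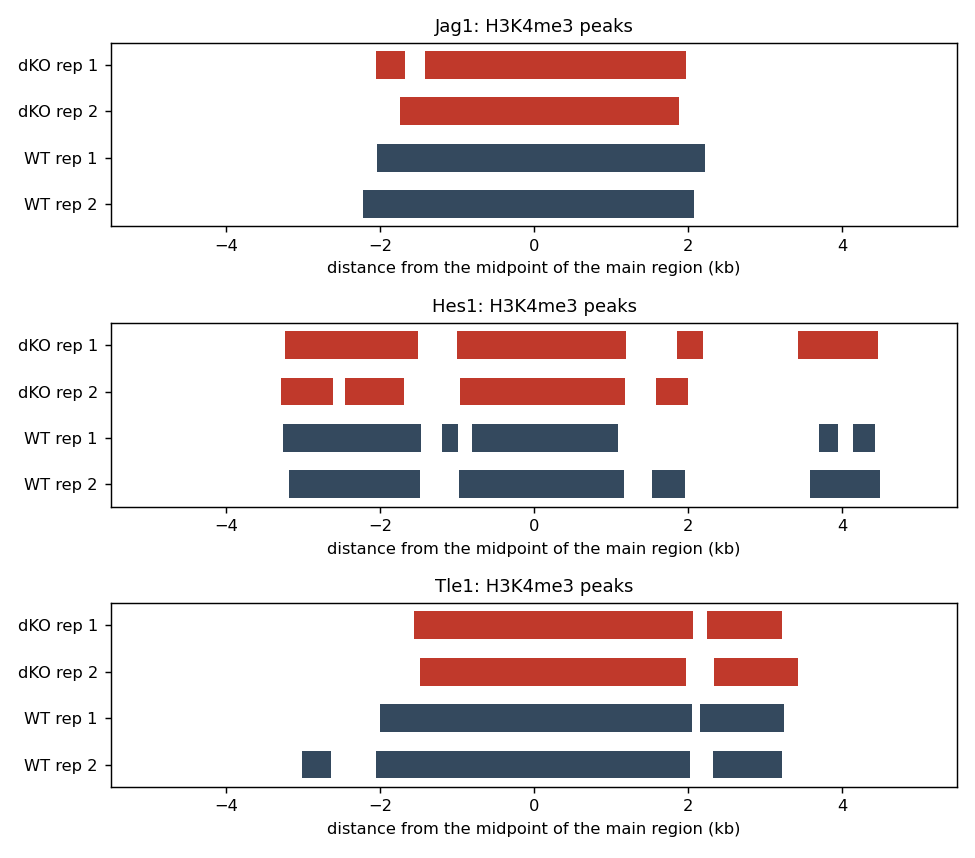
Peaks at Jag1, Hes1 and Tle1 in each library, dKO (red) above WT (dark blue), by distance in kb from the midpoint of the main region of each gene. Jag1 is a single block in 3 libraries and is split in dKO replicate 1, Hes1 is a row of several blocks, and the main Tle1 block begins further to the right in both dKO libraries.

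The Jag1 domain was 1 unbroken peak in dKO replicate 2 and in both WT libraries. In dKO replicate 1 it was called as 2 pieces, of 380 and 3389 bp, separated by 256 bp from 136939737 to 136939992. The small piece scored 56, at percentile 10.2 of its list. The break therefore lay between a broad peak and a short, weak one. With the break counted as covered, the difference at Jag1 was -456.5 bp.

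The higher-coordinate end of the Jag1 domain lay at 136943381 and 136943290 in dKO replicates 1 and 2, against 136943629 and 136943483 in WT replicates 1 and 2. Both dKO ends lay inside both WT ends, by 220.5 bp on average, which is percentile 93.2 among all shared regions. How often ends take this order over the series was not measured. The percentile ranks shifts in bp, and the median mean width of shared regions was 1137.5 bp, against 3988.25 bp at Jag1. The lower end lay at 136939357 and 136939668 in dKO, against 136939367 and 136939186 in WT. Here the groups overlapped, since dKO replicate 1 reached 10 bp beyond WT replicate 1. That dKO replicate 1 limit is that of its short, weak piece, and its longer piece began at 136939993, inside both WT limits. The overlap at this end therefore rests on the short piece. The mean inward shift was 236 bp, at percentile 94.5. RefSeq places Jag1 on the minus strand, on which transcription runs towards lower coordinates. Of the 4444 bp covered in any library at Jag1, 3367 bp (75.8%) were covered in all 4, 102 bp in both WT and neither dKO, from 136943382 to 136943483, and 0 bp in both dKO and neither WT.

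Tle1, the corepressor gene, carried a broad main domain with a smaller peak beside it at higher coordinates. The summed width was 4589 and 4547 bp in dKO replicates 1 and 2, against 5133 and 5349 bp in WT replicates 1 and 2. Again the groups did not overlap, and here the dKO pair lay closer together. The sum adds separate regions, and how often such sums take this order over the series was not measured. The means were 4568 ± 29.7 bp in dKO and 5241 ± 153 bp in WT (SD, n = 2 each), a difference of -673 bp, or 12.8% lower in dKO.

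The difference at Tle1 lay in the main domain. That peak measured 3612 and 3459 bp in dKO, against 4047 and 4077 bp in WT. The smaller peak measured 977 and 1088 bp in dKO, against 1086 and 895 bp in WT, so its groups overlapped. WT replicate 2 alone had a further peak, of 377 bp from 71856961 to 71857337, at score percentile 22.8 of its list. Without peaks under 500 bp the Tle1 difference was -484.5 bp.

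The ends of the main Tle1 domain differed in how far they moved. The lower-coordinate end lay at 71858418 and 71858490 in dKO replicates 1 and 2, against 71857975 and 71857914 in WT replicates 1 and 2. The mean inward shift was 509.5 bp, at percentile 99.3 of all shared regions, where the median was 35 bp. Over shared regions above 3000 bp the median shift was 42 bp. The mean width of this region was 3798.75 bp, against a median of 1137.5 bp over all shared regions. How often ends take this order over the series was not measured. The higher end lay at 71862029 and 71861948 in dKO, against 71862021 and 71861990 in WT, so the groups overlapped and the mean shift was 17 bp, under the median of 36 bp. A stretch of 443 bp from 71857975 to 71858417 was under a peak in both WT and in neither dKO library, and 0 bp showed the reverse. RefSeq lists Tle1 on the minus strand as well, so the end that differed is the end towards which transcription runs.

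**Figure D2:**
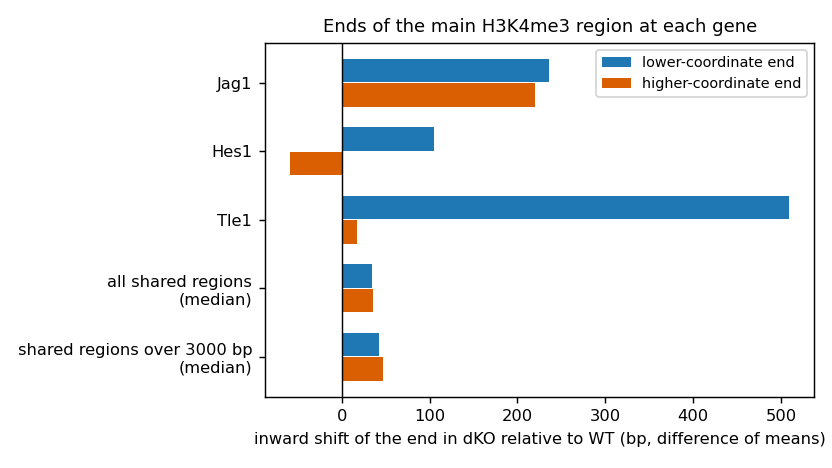
Inward shift of each end of the main region in dKO relative to WT, as the difference of the mean positions in bp (n = 2 libraries each), for each gene and as the median of all shared regions and of shared regions over 3000 bp. Tle1 moved by 509.5 bp at its lower end and 17 bp at its higher end, Jag1 by 236 and 220.5 bp and Hes1 by 105.5 and -59 bp (outward), and the medians are 35 and 36 bp over all shared regions and 42 and 46.5 bp over the broader ones. The inward sense at the lower Hes1 end rests on a short, weak piece of WT replicate 1.

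All 4 libraries had a gap between the 2 Tle1 peaks. It measured 185 and 358 bp in dKO replicates 1 and 2, against 106 and 301 bp in WT replicates 1 and 2. The 98 bp from 71862030 to 71862127 were outside every peak. Gaps present in all 4 libraries were seen in 9.23% of 13573 domains, formed by joining peaks of any library within 1000 bp of each other and keeping those with a peak in every library.

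Hes1, the target gene, had a different layout, with several peaks spread over more than 5 kb in every library and no consistent difference in total width. The summed width was 5292 and 4007 bp in dKO replicates 1 and 2, against 4436 and 5171 bp in WT replicates 1 and 2. The dKO values lay on either side of both WT values, so the groups overlapped fully. The means were 4649.5 ± 909 bp in dKO and 4803.5 ± 520 bp in WT (SD, n = 2 each), and the difference of -154 bp was smaller than either SD. Its sign turned in 5 of 9 alternatives, and it was 488.5 bp without dKO replicate 2 and -796.5 bp without dKO replicate 1.

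**Figure D3:**
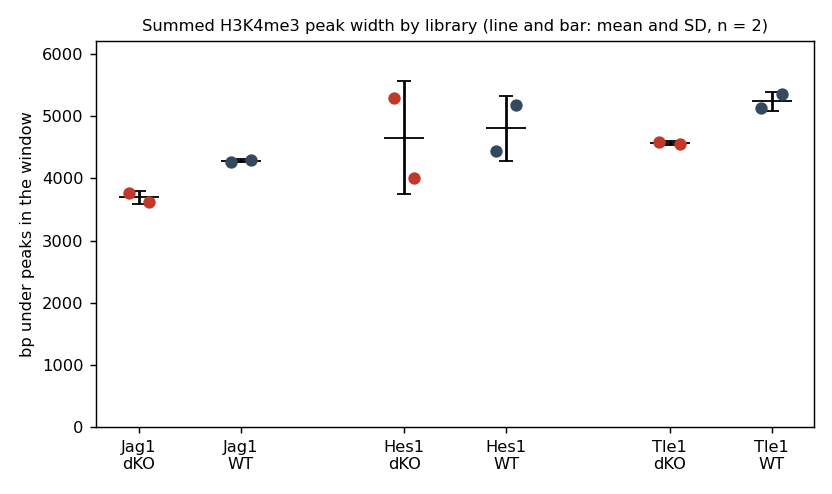
Summed width in bp of the peaks at each gene, 1 point per library (dKO left of WT), with the mean as a horizontal line and the SD as an error bar (n = 2 each). At Jag1 and Tle1 both dKO points lie below both WT points, and at Hes1 the dKO points, at 5292 and 4007 bp, enclose the WT points.

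The main Hes1 peak, from 30065295 to 30067684 over the 4 libraries, was steady. It covered 2193 and 2151 bp in dKO replicates 1 and 2, against 2112 and 2146 bp in WT replicates 1 and 2. Both dKO widths were above both WT widths, by as little as 5 bp, an order seen in 4.17% of all shared regions. In WT replicate 1 this width came as 2 pieces, of 213 and 1899 bp, and the short piece had a score of 19, at percentile 0.352 of its list. The order of the groups depends on the 179 bp break between these pieces, from 30065508 to 30065686. With the break counted as covered, WT replicate 1 would be wider than both dKO libraries and the order would be lost. At the lower end of the main Hes1 region the groups overlapped. This end lay at 30065492 and 30065525 in dKO, against 30065295 and 30065511 in WT. The mean inward shift was 105.5 bp, at percentile 77.6 of all shared regions. The WT replicate 1 limit is that of its short piece, and its longer piece began at 30065687, above both dKO limits. The inward sense of the mean shift therefore rests on that short piece. The higher end lay at 30067684 and 30067675 in dKO, against 30067585 and 30067656 in WT, an average of 59 bp further out in dKO.

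The neighbouring Hes1 peak at lower coordinates, from 30063208 to 30065020, covered 1728 and 1435 bp in dKO, against 1795 and 1692 bp in WT. The dKO replicate 2 value was the lowest and came in 2 pieces of 667 and 768 bp, while dKO replicate 1 lay between the WT values. Between this peak and the main one, 274 bp from 30065021 to 30065294 were outside every peak. The uncovered stretch measured 513 and 729 bp in dKO replicates 1 and 2, against 274 and 508 bp in WT replicates 1 and 2, the value of WT replicate 1 reaching to its short weak piece. The gaps of dKO replicate 1 and WT replicate 2 were 5 bp apart, and how often gaps take this order over the series was not measured.

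The remaining Hes1 peaks came and went between libraries without following genotype. A short peak between 30068026 and 30068678 measured 328 and 421 bp in dKO and 423 bp in WT replicate 2, and WT replicate 1 had none. A peak between 30069920 and 30070985 covered 1043 bp in dKO replicate 1, 529 bp in 2 pieces in WT replicate 1 and 910 bp in WT replicate 2, and dKO replicate 2 had none. Across the series 1286 regions had a peak in 3 of the 4 lists, and 929 of them lacked it in dKO replicate 2 and 93 lacked it in WT replicate 1. No peak means that none passed the caller's threshold.

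At Hes1 54.6% of the 5922 bp covered in any library were covered in all 4, against 75.3% at Tle1 and 66.6% over all peaks of the series. The bases under a peak in both WT and in neither dKO made up 0.405% at Hes1, 2.30% at Jag1 and 7.69% at Tle1, and 4.24% over the whole series. The bases under a peak in both dKO and in neither WT made up 1.01% at Hes1, 0% at Jag1 and at Tle1, and 0.429% over the series. The bases that separate the genotypes were therefore few at Hes1 and Jag1, and at Tle1 they formed the single stretch given above.

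The widest peak at Jag1 was among the broadest of each list. It ranked 146 and 75 by width in dKO replicates 1 and 2, against 37 and 49 in WT replicates 1 and 2. At Tle1 the widest peak ranked 97 and 92 in dKO, against 57 and 79 in WT. All of these ranks lay above percentile 99. The widest Hes1 peak ranked lower, at 1057 and 822 in dKO, against 2053 and 1597 in WT. Single pieces are ranked here, and Jag1 in dKO replicate 1 and the main Hes1 peak in WT replicate 1 were split. Lists also differ in length, so these ranks show no change between genotypes.

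The peak score, which is the authors' value and whose scale the labels do not name, was used only to describe and rank peaks within their own list. The best Jag1 score was near percentile 64 in every library, at 63.2 and 64.9 in dKO replicates 1 and 2, against 63.2 and 65.3 in WT replicates 1 and 2. Jag1 was thus broad but of middling score in each library. Lists differ in length, so ranks between them show no change.

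The best Tle1 score stood at percentile 87.7 and 72.5 in dKO, against 95.1 and 72.0 in WT. The replicates of each genotype were further apart than the genotype means, and in each genotype replicate 1 was the higher. The best Hes1 score stood at percentile 62.1 and 50.5 in dKO, against 55.4 and 65.6 in WT, with overlapping groups. The smaller Tle1 peak stood at percentile 36.6 and 38.8 in dKO, against 47.8 and 51.8 in WT.

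**Figure D4:**
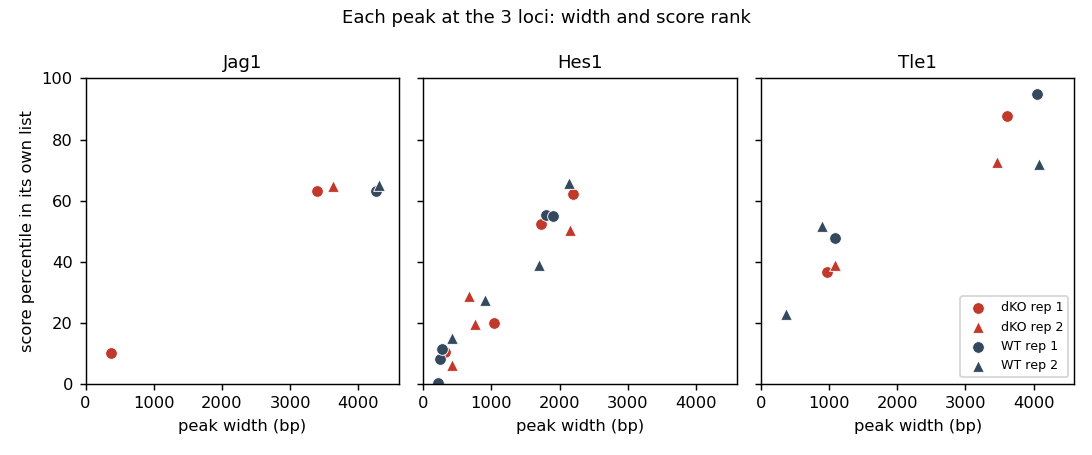
Each peak at the 3 genes by its width in bp and the percentile of its score within its own list (circles, replicate 1; triangles, replicate 2; red, dKO; dark blue, WT). The broad Jag1 peaks lie near percentile 64 in all libraries, the broad Tle1 peaks between percentiles 72.0 and 95.1, and the Hes1 peaks run from percentile 0.352 to 65.6.

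Over the whole series, lists were shorter and peaks covered less DNA in dKO, with 19.3 and 17.3 Mb in dKO replicates 1 and 2 and 20.3 and 21.4 Mb in WT replicates 1 and 2. The median width over the shared regions was 1128 and 1033 bp in dKO, against 1161 and 1222 bp in WT. Read depth was unknown, and the part of depth or of immunoprecipitation in the widths at the 3 genes was not tested.

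The narrower main regions of Jag1 and Tle1 were set against this background. That order of the groups, seen in 39.1% of all shared regions, held in 48.9% of the 333 shared regions over 3000 bp, a group added after the widths at the 3 genes had been seen. The reverse order held in 4.17% of all shared regions and in 4.50% of those over 3000 bp. It was seen at the main Hes1 region with the break in WT replicate 1 left uncovered. That region had a mean width of 2150.5 bp and is not among those over 3000 bp. The order at Jag1 and Tle1 was therefore a common one in these libraries.

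The log2 width ratio of dKO over WT, without centring, was -0.21 for the main region of Jag1, -0.20 for that of Tle1 and 0.029 for that of Hes1. The Hes1 value leaves the break in WT replicate 1 uncovered. The median over these 3 regions, which were chosen by their widths, is the Tle1 value of -0.20. The median was -0.12 over all shared regions and -0.083 over those above 3000 bp. Jag1 stood at percentile 31.1, Tle1 at 33.2 and Hes1 at 85.3 of all shared regions. The lower Hes1 peak was at -0.15 and percentile 43.8, and the smaller Tle1 peak at 0.065 and percentile 90.2.

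Centring each library on its median removes the shift between library medians, which was -0.14 on the log2 scale between the genotypes. After centring, the limma estimate was -0.07 (SE 0.073) at Jag1, -0.059 (SE 0.073) at Tle1 and 0.17 (SE 0.081) at Hes1. The size of these estimates depended on the scaling, and quantile normalization gave -0.13 (SE 0.057) at Jag1, -0.10 (SE 0.058) at Tle1 and 0.13 (SE 0.073) at Hes1. Since the genes were chosen by these widths, the estimates are given with no test. In the centred fit 1 of the 14943 shared regions was called wider in dKO (0.00669%) and 0 narrower (0%) at an adjusted p under 0.05, while 421 and 725 had an unadjusted p under 0.05.

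**Figure D5:**
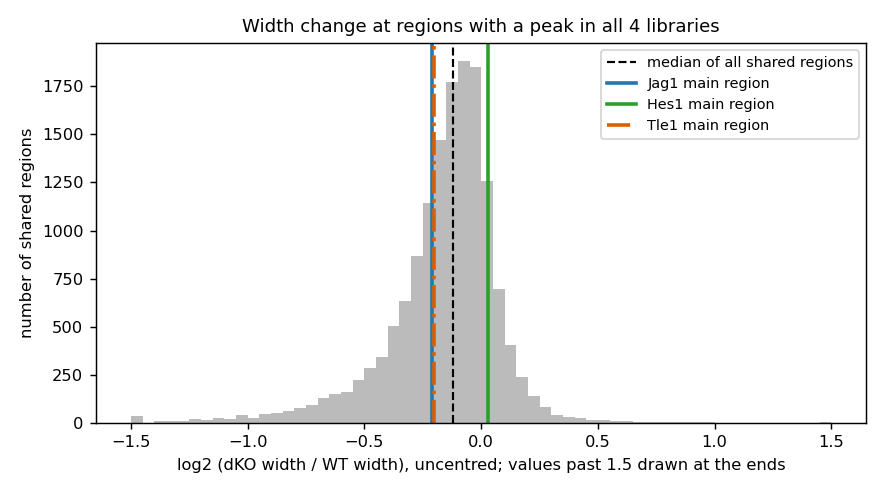
Number of shared regions by log2 ratio of dKO width over WT width, uncentred, over 14943 regions (grey bars), with the median (dashed) and the main regions of the 3 genes as vertical lines. Jag1 and Tle1, at -0.21 and -0.20, lie left of the median of -0.12, and Hes1, at 0.029, lies right of it.

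The surroundings of the 3 genes also differed. The nearest peaks outside the Jag1 window were 216.6 and 216.6 kb below it in dKO, against 216.5 and 216.6 kb in WT, and 1134 kb above it in all 4 libraries. Tle1 stood more isolated, with the nearest peaks 1657 kb below and 1570 kb above its window in dKO replicate 1, and 1657 and 1569 kb away in WT replicate 1. At Hes1 the nearest lower peak was 50.7 and 50.9 kb away in dKO, against 50.6 and 50.6 kb in WT. The nearest higher peak was 116 kb away in 3 libraries and 237 kb away in dKO replicate 2, which had no peak at the nearer site.

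For each main region, the 3 shared regions with the most similar widths over the 4 libraries were found by Euclidean distance of uncentred log2 widths. Closest to Jag1 came the stretch 93247385 to 93252014 of chromosome 3, whose peaks summed to 4001 and 3611 bp in dKO, against 4345 and 4317 bp in WT (distance 0.091). The next were on chromosome 3 from 38783692 to 38787933 and chromosome 19 from 8892514 to 8896869. Closest to Tle1 came the stretch 151906091 to 151910465 of chromosome 2, whose peaks summed to 3462 and 3428 bp in dKO, against 4234 and 4098 bp in WT (distance 0.091), followed by chromosome 10 from 13684261 to 13688255 and chromosome 14 from 80167431 to 80171832. Closest to Hes1 came the stretch 97565726 to 97567956 of chromosome 6, whose peaks summed to 2155 and 2147 bp in dKO, against 2088 and 2153 bp in WT (distance 0.031), followed by chromosome 6 from 124705269 to 124707448 and chromosome 13 from 101420280 to 101422553. Likeness here rests on 4 widths and was measured over 14943 regions.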

How the data were processed

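The authors deposited a peak list for each of the 4 H3K4me3 libraries, with positions on mm9 and a score per peak, whose lowest value was 13 in each list. The submitters' processing notes name MACS2 2.1.1.20160309, bedtools, R 2.14.0, BWA 0.7.12-r1039, SAMtools and Picard 2.6.0. Their roles and thresholds, and the use of input chromatin, are not given in the sources used here. The 4 input libraries were not analysed here. Widths were summed over whole peaks overlapping a window, and positions count from 1. Peaks of the 4 lists overlapping by at least 1 bp were joined into regions, and a main region is the one of a gene with the largest mean width. Log2 widths of regions with a peak in all 4 libraries, centred on each library's median, were fitted with limma 3.58.1 (R 4.3.3, variance trend, Benjamini-Hochberg adjustment over all regions). On simulated widths of 14943 regions with 200 of them changed, it recovered 86% of regions changed by -2, 54% at -1, 68% at 1 and 97.3% at 2 (log2), and 26 of its 484 calls over 3 rounds were of unchanged regions. Recovery of changes between -1 and 1 was not measured. Percentiles 5 and 95 of the centred changes in the real data were -0.48 and 0.28. Tables and plots were made with Python 3.11.15, pandas 2.3.3 and matplotlib 3.10.9. The members and lists were chosen with earlier results of these data known. Named items were the 3 genes, their peaks, the nearest outside peaks and 3 regions of similar width each. Other Notch pathway genes had been listed but were not located, since the annotation table used was of another build. No pair of lists shared more than 1 identical peak, and p-values would measure the spread between these libraries only.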

Additional observations from a re-analysis of the deposited data

How the results depend on the processing

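For the summed widths, alternatives were merging peaks within 1000 bp, lists of equal length (17367 peaks), clipping to the window, windows widened by 5000 bp, leaving out peaks under 500 bp, and leaving out each library. The Jag1 and Tle1 width differences stayed negative in 9 of 9 alternatives each. Merging gave -456.5 bp at Jag1 and -893 bp at Tle1, and leaving out short peaks gave -774.5 and -484.5 bp. With a library left out, Jag1 ranged from -657.5 to -511.5 bp, Tle1 from -781 to -565 bp and Hes1 from -796.5 to 488.5 bp; Hes1 was 311 bp merged, 76 bp with equal lists, 54 bp without short peaks and 213.5 bp without WT replicate 2. The limma fit was repeated with a replicate block, with merged peaks, with quantile-normalized or uncentred widths and with each library left out, and for the counts of calls also no variance trend. The log2 changes of the main regions kept their sign in 8 of 8 of these for each gene. None of these settings covered only the break of WT replicate 1 in the main Hes1 region. Whether the Hes1 sign holds with that break covered was therefore not tested. They ranged from -0.21 to -0.012 at Jag1, -0.20 to -0.026 at Tle1 and 0.029 to 0.33 at Hes1, the low Jag1 and Tle1 values coming without centring. The -0.012 at Jag1 and the 0.33 at Hes1 came with peaks merged. That setting measures a joined domain with its gaps, which at Hes1 also holds the neighbouring peaks, and not the main region alone. Without merging, the highest Hes1 value was 0.22, without dKO replicate 1. Over all shared regions, limma called 1 wider and 0 narrower, against 0 wider without centring, 7 narrower with peaks merged, and 0 to 3 wider and 0 to 106 narrower with a library left out. The 3 and 106 came without dKO replicate 1, a fit in which only WT replicates give a spread, taken to hold for the single dKO library too; the 0 wider came without dKO replicate 2. The cause of these changes was not tested. The labels do not say what a replicate number stands for, and deviations of same-numbered libraries correlated at -0.059. With the replicate number as a block, 1 region was wider and 0 narrower, and the SE at Jag1 was 0.093. Depth is unknown, so its limit on these widths could not be set.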
